A study of Mus musculus with 12 samples.

Results

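Iyd, Nptx1, Bok, Elavl2 and Cpne4 are genes used as markers of CA3 pyramidal neurons of the hippocampus, and their RNA was measured mouse by mouse in dorsal hippocampus. The set was chosen by symbol, as the rows of the raw count table that carried 1 of 6 names. Of the 6 symbols, 5 had a row among the 24985 genes, all 5 passed the filter on low counts, and Lyd had no row and was not a symbol in the gene name table used here. The 12 libraries were poly(A) RNA from the right dorsal hippocampus of wild-type C57Bl6/J mice, dissected from a coronal slice 1 mm thick, with 3 mice in each of 4 groups. All mice received a unilateral injection at 6 months of age, were kept on their diet for 6 months and were killed a day after a remote memory recall test. The PBS control group received PBS and a control diet matched for calories, and the PBS acetate group received PBS and a LabDiet chow with 5% Na-acetate. The tau control and tau acetate groups received 1 µg of AD tau, pathological tau purified from brains of people with Alzheimer's disease, and the same respective diets.

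CA3 pyramidal neurons receive mossy fibre input from dentate granule cells, excite each other through recurrent collaterals and project to CA1 through the Schaffer collaterals. This wiring is known for its part in the storage and completion of memories, and CA3 differs from CA1, CA2 and the dentate gyrus in the genes its neurons express. Nptx1 encodes neuronal pentraxin 1, a secreted protein that gathers AMPA-type glutamate receptors at synapses. Cpne4 encodes a copine, a protein that binds membrane phospholipids when calcium rises. Elavl2 encodes a neuronal RNA-binding protein that acts on the stability and splicing of messenger RNA. Bok encodes a BCL2-family protein of the endoplasmic reticulum that binds IP3 receptors. Iyd encodes iodotyrosine deiodinase, best known for recovering iodide in the thyroid.

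In GRCm38 with GENCODE M21, Nptx1 lies on the minus strand of chromosome 11 (119538719 to 119547753) and Cpne4 on the plus strand of chromosome 9 (104547286 to 105034544). Elavl2 lies on the minus strand of chromosome 4 (91250763 to 91400785), Bok on the plus strand of chromosome 1 (93685660 to 93695764) and Iyd on the plus strand of chromosome 10 (3540240 to 3554877). Counts covered exons, and the combined exons of each gene were 5217 bases for Nptx1, 5499 for Cpne4, 8313 for Elavl2, 1840 for Bok and 1623 for Iyd. The 5 genes lie on 5 chromosomes. The RefSeq promoter windows of 4 members are shown as a description, and Nptx1 had no entry in the promoter set used here. Any part of these windows in the RNA levels was not tested. Elavl2 had 6 listed starts and Cpne4 had 2, and only 1 window of each gene was searched. The Cpne4 and Elavl2 windows lie inside their GENCODE genes, downstream of the gene starts at 104547286 (Cpne4) and 91400785 (Elavl2, minus strand). Each window runs from 250 bases before to 50 bases after the 5′-most listed start in GRCm38.p6, 5′ to 3′ on the gene's strand, with every E-box (CANNTG, a palindrome in its fixed letters) in capitals.
Iyd, chr10:3540024-3540323, plus strand: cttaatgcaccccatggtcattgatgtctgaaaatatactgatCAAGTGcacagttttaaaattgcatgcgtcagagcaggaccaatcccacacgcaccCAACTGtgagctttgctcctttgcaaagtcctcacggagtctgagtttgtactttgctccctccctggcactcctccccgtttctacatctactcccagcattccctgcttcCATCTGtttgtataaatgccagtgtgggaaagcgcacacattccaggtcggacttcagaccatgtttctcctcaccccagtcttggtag
Bok, chr1:93685325-93685624, plus strand: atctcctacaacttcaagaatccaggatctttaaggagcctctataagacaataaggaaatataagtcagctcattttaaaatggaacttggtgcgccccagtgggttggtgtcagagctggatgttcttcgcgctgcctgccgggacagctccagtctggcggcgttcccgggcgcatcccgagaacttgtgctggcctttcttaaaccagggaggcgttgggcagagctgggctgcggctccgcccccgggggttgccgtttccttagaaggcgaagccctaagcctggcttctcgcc
Elavl2, chr4:91399935-91400234, minus strand: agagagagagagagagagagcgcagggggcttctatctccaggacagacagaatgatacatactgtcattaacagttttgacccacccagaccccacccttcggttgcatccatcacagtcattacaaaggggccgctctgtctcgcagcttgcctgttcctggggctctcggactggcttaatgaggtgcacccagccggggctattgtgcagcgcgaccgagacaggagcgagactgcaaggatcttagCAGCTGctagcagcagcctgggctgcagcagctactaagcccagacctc
Cpne4, chr9:104569405-104569704, plus strand: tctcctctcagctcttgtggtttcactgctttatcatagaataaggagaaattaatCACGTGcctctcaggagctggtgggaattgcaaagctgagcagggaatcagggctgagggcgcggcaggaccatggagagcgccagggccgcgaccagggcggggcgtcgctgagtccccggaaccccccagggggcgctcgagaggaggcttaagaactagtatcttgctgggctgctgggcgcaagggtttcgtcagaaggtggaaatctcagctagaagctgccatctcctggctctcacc
Iyd held 3 E-boxes and 1 TATAAA, Elavl2 held 1 E-box, Cpne4 held 1 E-box and 1 GGGCGG, and Bok held 1 GGGCGG and no E-box. The CRE TGACGTCA was in none of the 4 windows. TATAAA and GGGCGG were searched on both strands, and neither overlapped an E-box. Of 32851 mouse promoter windows of this length, 72.3% held CANNTG, 35.7% GGGCGG, 13.6% TATAAA and 1.79% TGACGTCA. GC content was 49.0% for Iyd, 56.3% for Bok, 57.0% for Elavl2 and 58.7% for Cpne4.

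Library totals ran from 12983233 to 20218340 counts, and 14742 genes were tested. Xist, a transcript of the inactive X chromosome, had 13583 to 25991 counts in all 12 libraries, and 8 Y-linked genes had a total of 0 counts, whereas the labels call the mice male. All 4 groups shared these levels. The 5 markers were detected in every mouse. Per kilobase of exon, Nptx1 was the most abundant in PBS control mice at 206 ± 12.4 CPM per kb (SD, n = 3), where CPM is the count scaled to the TMM-adjusted library size. Bok followed at 64.9 ± 8.83, then Cpne4 at 39.7 ± 3.91, Elavl2 at 13.5 ± 1.05 and Iyd at 6.89 ± 0.91 CPM per kb. Neighbours in this order differed by more than their SDs. Iyd rested on 63 to 194 counts per mouse, with a counting error of 7.18 to 12.6%, whereas Nptx1 rested on 12237 to 21009 counts. The other members had 821 to 3837 counts per mouse.

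The first comparison asked what the acetate diet was accompanied by in mice without tau. All 5 CA3 markers were lower in PBS acetate than in PBS control mice, with no overlap between the groups, and 4 of the 5 (Iyd, Nptx1, Elavl2 and Cpne4) fell at an adjusted p below 0.1 in edgeR's quasi-likelihood test. Across all genes tested, 4.85% were called lower and 3.99% higher in this comparison, and 13.2% had groups that did not overlap in the lower direction. The median log2 fold change of the 5 markers was −0.82, beside 0.0042 over all genes tested. Nptx1 fell by 21.4%, Elavl2 fell by 37.6%, Cpne4 fell by 43.6% and Iyd fell by 58.5%. In bulk tissue, a smaller CA3 part of the dissected slice, fewer CA3 neurons and less RNA per CA3 neuron cannot be told apart.

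**Figure D1:**
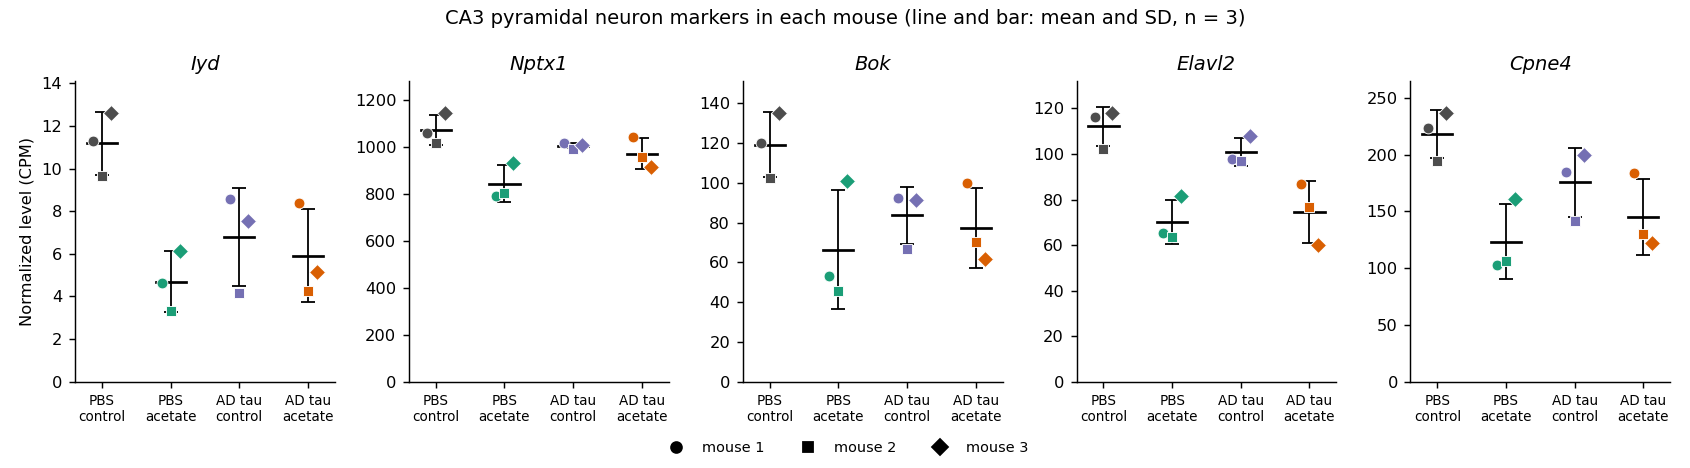
CPM of the 5 CA3 markers in each of the 12 mice, by group (points are mice, horizontal lines are group means and bars are SD, n = 3). PBS acetate mice lie below PBS control mice for every gene, for example 63.7 to 81.5 against 102 to 118 CPM for Elavl2.

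Nptx1 was measured at 1057, 1016 and 1143 CPM in the 3 PBS control mice and at 790, 804 and 933 CPM in the 3 PBS acetate mice. All acetate mice were below all control mice. The log2 fold change was −0.35 (SE 0.06, adjusted p = 0.0146, edgeR). In tau-injected mice Nptx1 was at 1016, 992 and 1009 CPM on the control diet and at 1041, 958 and 912 CPM on acetate. These groups overlapped, and the log2 difference was −0.05 (95% interval −0.19 to 0.08, adjusted p = 0.833, edgeR).

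Cpne4 was at 223, 195 and 237 CPM in PBS control and at 103, 106 and 161 CPM in PBS acetate mice, a log2 fold change of −0.82 (SE 0.23, adjusted p = 0.0835, edgeR). PBS acetate mouse 3 was nearer to the controls than the other two were. With tau, Cpne4 was at 185, 141 and 200 CPM on the control diet and at 184, 130 and 122 CPM on acetate. The tau groups overlapped, and the log2 difference was −0.27 (95% interval −0.79 to 0.25, adjusted p = 0.734, edgeR).

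Elavl2 was at 116, 102 and 118 CPM in PBS control and at 65.3, 63.7 and 81.5 CPM in PBS acetate mice, a log2 fold change of −0.68 (SE 0.13, adjusted p = 0.0251, edgeR). The tau mice were at 97.7, 96.9 and 108 CPM on the control diet and at 86.8, 76.5 and 60.1 CPM on acetate. Elavl2 was the only member of the 5 whose diet groups were apart, without overlap, in both injection arms. In the tau arm the log2 difference was −0.43 (SE 0.13, 95% interval −0.72 to −0.15), with an unadjusted p of 0.00653 and an adjusted p of 0.280 in edgeR, and it was not called. DESeq2 called it, with an adjusted p of 0.0283 over all 12 mice and 0.0189 in a fit of the tau mice alone. For this comparison those fits called 175 of 19626 and 137 of 19033 genes, in that order, whereas edgeR called 9 of 14742.

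Bok was at 120, 103 and 135 CPM in PBS control and at 53.0, 45.4 and 101 CPM in PBS acetate mice. PBS acetate mouse 3 lay just under the lowest control mouse, while the other acetate mice were far below it. The log2 difference of −0.85 (SE 0.32, 95% interval −1.58 to −0.13) did not pass the test, with an adjusted p of 0.177 in edgeR. Without that mouse the log2 fold change was −1.28 with an adjusted p of 0.0296 in edgeR. The tau mice were at 92.6, 67.0 and 91.3 CPM on the control diet and at 100.0, 70.1 and 61.7 CPM on acetate, and overlapped (log2 difference −0.11, 95% interval −0.84 to 0.62).

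Iyd, the least abundant member, was at 11.3, 9.65 and 12.6 CPM in PBS control and at 4.65, 3.30 and 6.13 CPM in PBS acetate mice. Its log2 fold change of −1.27 (SE 0.30, adjusted p = 0.0449, edgeR) had the greatest size of the 5. The tau mice were at 8.58, 4.18 and 7.55 CPM on the control diet and at 8.38, 4.23 and 5.14 CPM on acetate, and overlapped (log2 difference −0.17, 95% interval −0.84 to 0.51).

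The calls in PBS-injected mice rested on single mice to different degrees. Leaving out 1 mouse at a time gave 0 to 5 called markers: 0 without PBS acetate mouse 2, 1 without PBS control mouse 3, 2 without PBS acetate mouse 1 and 5 without PBS acetate mouse 3. The same omissions left 15, 248, 315 and 1355 genes called in all, against 1303 with every mouse. Cpne4 lost its call in 7 of the 12 omissions, Iyd in 3 (PBS control mouse 3 and PBS acetate mice 1 and 2), Elavl2 in 2 (PBS control mouse 3 and PBS acetate mouse 2) and Nptx1 in 1 (PBS acetate mouse 2). All 5 log2 values stayed below 0 in each omission.

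In tau-injected mice, edgeR called none of the 5 markers between diets, with 1 (Elavl2) at an unadjusted p below 0.05, and DESeq2 called 1. Of all genes tested, 0.0611% were called in either direction, and 7.77% had acetate values that were all below the control values, as 1 of the 5 markers (Elavl2) had. The median log2 difference of the markers was −0.17, beside 0.00079 over all genes, and the difference between the diet effects of the 2 arms was tested directly as the interaction. None of the 5 was called in the interaction by edgeR, where 1.56% of all genes were called, 2 had an unadjusted p below 0.05 and DESeq2 called 1 (Nptx1, adjusted p = 0.0846). The interaction log2 values were 1.10 for Iyd (SE 0.43, adjusted p = 0.310), 0.30 for Nptx1 (SE 0.09, adjusted p = 0.152), 0.75 for Bok (adjusted p = 0.551), 0.25 for Elavl2 (adjusted p = 0.643) and 0.56 for Cpne4 (adjusted p = 0.528). All 5 values were above 0, the side on which the diet difference is less negative in tau mice.

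The tau comparisons asked what AD tau was accompanied by on each diet, and they share the PBS control and PBS acetate mice with the diet comparison above. On the control diet, all 5 markers were lower in tau than in PBS mice, none was called by edgeR or by DESeq2 over all 12 mice, and 1 had an unadjusted p below 0.05. That was Iyd, with a log2 difference of −0.73 (SE 0.30, 95% interval −1.38 to −0.08, adjusted p = 0.463, edgeR). Of all genes tested, 0.0136% were called. Iyd and Bok groups did not overlap, beside 6.84% of all genes whose groups did not overlap in the lower direction. Markers of other cells moved in this comparison as well, and their part was not tested: all 6 oligodendrocyte genes were lower in tau control than in PBS control mice without overlap (median log2 difference −0.63), all 6 thalamus values (median −1.15) and all 6 CA2 values (−0.39) were below 0, and all 7 CA1 values were above 0 (0.49). None of these genes was called by edgeR. Bok had a log2 difference of −0.52 (SE 0.32, adjusted p = 0.684, edgeR). DESeq2 on the compared mice alone gave it an adjusted p of 0.00324 and called 170 of 18916 genes. On the acetate diet all 5 were higher in tau than in PBS mice, by log2 values of 0.37 for Iyd, 0.20 for Nptx1, 0.23 for Bok, 0.09 for Elavl2 and 0.24 for Cpne4, with none called by edgeR or DESeq2 and all groups overlapping. Nptx1 had the lowest p there, an unadjusted 0.00535 and an adjusted 0.270 in edgeR, where 0.136% of all genes were called.

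**Figure D2:**
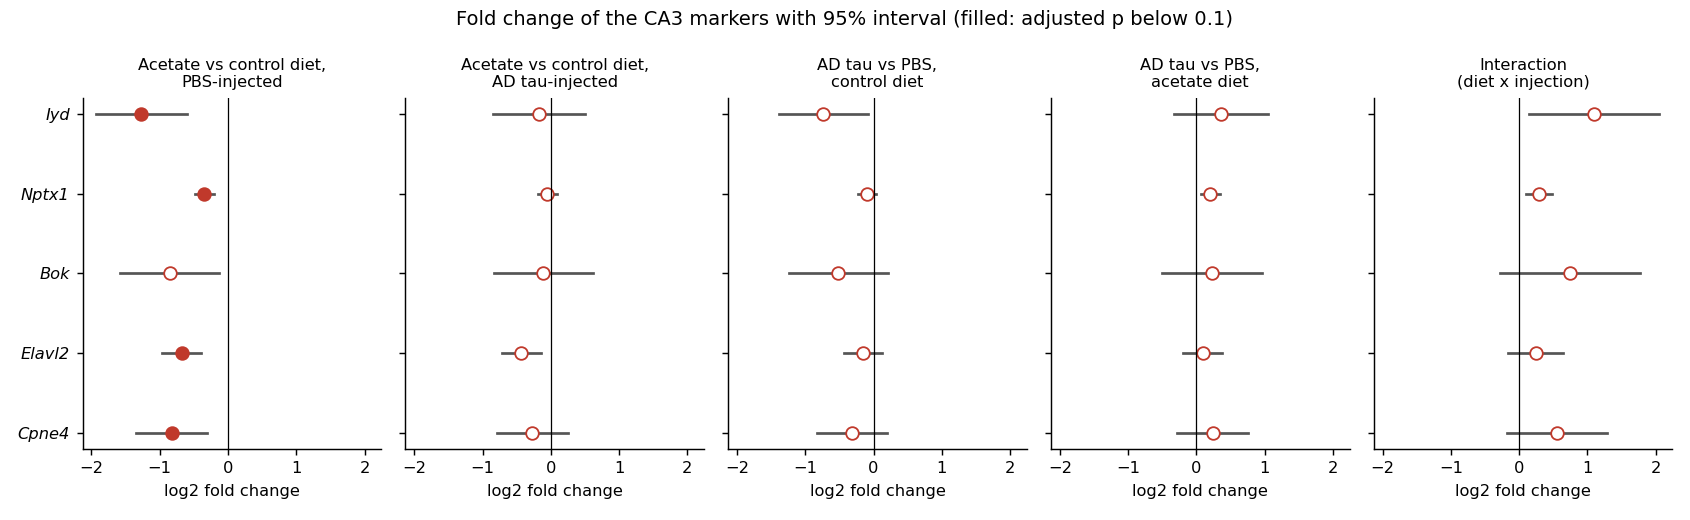
Log2 fold change with its 95% interval (edgeR) of the 5 CA3 markers in 4 comparisons and in the interaction, with filled points for an adjusted p below 0.1. Only the diet comparison in PBS-injected mice holds called values, for Iyd, Nptx1, Elavl2 and Cpne4.

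Single mice had like positions across the markers. PBS control mouse 2 and tau control mouse 2 were each the lowest of their group for all 5 markers. PBS control mouse 3, PBS acetate mouse 3 and tau acetate mouse 1 were each the highest of their group for all 5. A score, the mean over the 5 markers of log2 CPM with each gene's mean over the mice set to 0, was 0.47, 0.29 and 0.58 in PBS control mice and −0.49, −0.63 and 0.01 in PBS acetate mice. It was 0.20, −0.19 and 0.21 in tau control and 0.18, −0.27 and −0.36 in tau acetate mice. The PBS groups did not overlap, and the tau groups did. The difference in mean score between diets was −0.814 in PBS mice and −0.221 in tau mice, with a pooled SD of 0.259 in each. No p is given for the score, since the members were chosen with earlier results known.

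**Figure D3:**
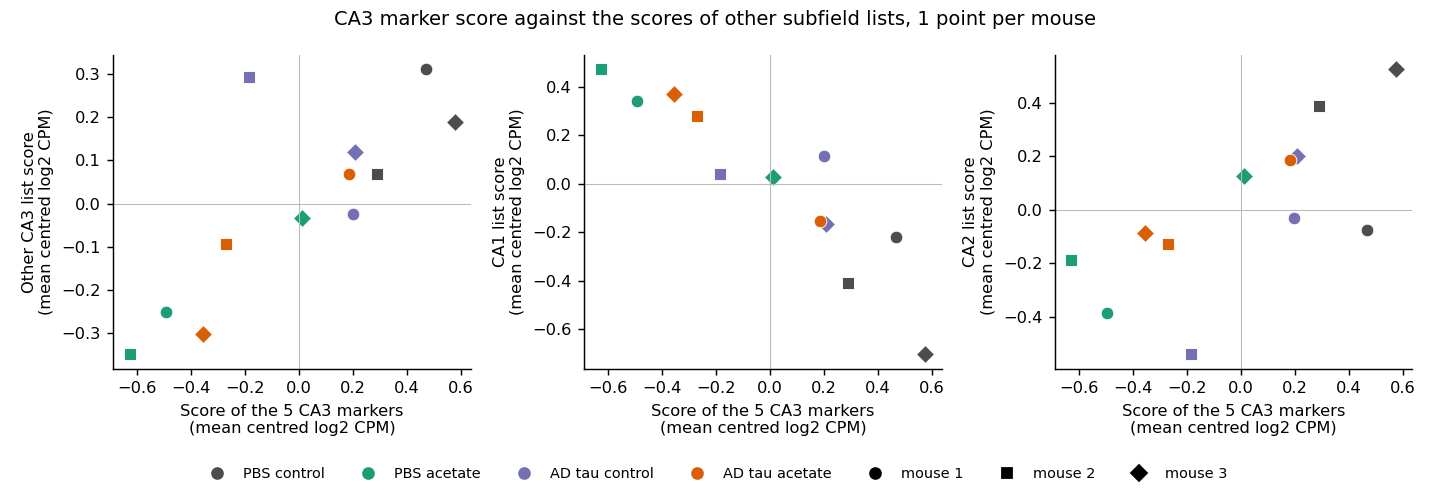
Marker scores (mean log2 CPM of the list's genes, centred on each gene's mean over the 12 mice), with the score of the 5 CA3 markers on the x axis and the score of the other CA3, CA1 or CA2 list on the y axis, 1 point per mouse, coloured by group. The 5-marker scores are 0.29 to 0.58 in PBS control and −0.63 to 0.01 in PBS acetate mice, the CA1 panel slopes downward, and tau control mouse 2 (−0.19, 0.29) stands apart in the other CA3 panel.

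Other genes used as CA3 markers were counted as well. Of 8 (Grik4, a kainate receptor subunit, Spock1, Dkk3, Homer3, Plagl1, Nnat, St18 and Nectin3), 3 fell in PBS acetate against PBS control mice, beside 4.85% of all genes called lower. They were Nectin3, a cell adhesion molecule (log2 fold change −1.01, adjusted p = 0.0497), Spock1 (−0.72, adjusted p = 0.0532) and Grik4 (−0.54, adjusted p = 0.0736), all by edgeR. The median of the 8 was −0.33, and 7 of 8 values were below 0. Between diets in tau-injected mice none of the 8 was called, 7 of 8 values were again below 0 and the median was −0.30, beside −0.17 for the 5 markers. The score of these 8 genes did not follow the 5 markers in every mouse: tau control mouse 2, lowest of its group for the 5 markers (score −0.19), had the highest score of its group for the other CA3 genes (0.29). In tau control mice Nnat (145 ± 69.2 CPM, SD, n = 3) and Plagl1 (14.2 ± 4.66) spread widely, while Grik4 was at 66.3 ± 4.92 and Nectin3 at 43.9 ± 4.44. How far single genes set this score was not tested. Of 7 CA1 markers, 5 rose, beside 3.99% of all genes called higher, among them Fibcd1 (log2 fold change 0.68), Pou3f1 (0.61), Mpped1 (0.78) and Ndst4 (0.71). The median of the 7 was 0.71, and their summed level was 506 to 673 CPM in PBS control and 806 to 1087 CPM in PBS acetate mice. Across the 12 mice each of the 5 CA3 markers had a negative correlation with the CA1 score, with Pearson r from −0.898 to −0.848, as a description. With group means removed, r ran from −0.818 (Nptx1) to −0.629 (Iyd). With the score of the other CA3 genes, r was 0.627 (Iyd) to 0.914 (Elavl2), and 0.208 (Iyd) to 0.784 (Elavl2) with group means removed. Of 6 CA2 markers, none was called, all 6 values were below 0 and the median was −0.43. The 8 dentate granule markers held no call and had a median of 0.11.

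Markers of neighbouring tissue also moved with the groups, and their part in the results was not tested. The summed level of 6 oligodendrocyte genes was 6869 to 8859 CPM in PBS control, 4311 to 5933 in PBS acetate, 4556 to 5510 in tau control and 5196 to 8353 CPM in tau acetate mice. In the PBS diet comparison, 4.85% of all genes were called lower. There the list held 1 of 6 (Mobp, a myelin protein, log2 fold change −0.73, adjusted p = 0.098 in edgeR) called and had a median of −0.51. Between diets in tau mice all 6 values were above 0 (median 0.53) with none called. In PBS control against PBS acetate mice the 5 choroid plexus genes summed to 87.5 to 119 against 64.4 to 80.9 CPM. Of the 5, 1 (Folr1, a folate receptor, log2 fold change −1.73) was called, beside the same 4.85% of all genes. In tau acetate mouse 3 they summed to 477 CPM, beside 78.9 and 79.1 in the other mice of its group. The 6 thalamus genes summed to 280 CPM in PBS control mouse 2, which stood apart from mice 1 and 3 of its group at 104 and 131 CPM, and to 88.5 to 89.0 CPM in PBS acetate mice, with none called. Without PBS control mouse 2, edgeR called 3 of the 5 CA3 markers between diets in PBS mice, with Cpne4 not called (log2 difference −0.90, adjusted p = 0.115). That fit called 982 of the 14930 genes it tested. No haemoglobin gene of 4 had a count in any library.

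The markers did not all change by the same amount, which was described by setting each gene's centred log2 CPM against the mean of the other 4 in the same mouse. In PBS control mice Iyd was above the other 4 by 0.378 ± 0.058 (SD, n = 3), and in every other group its mean was below 0, from −0.185 in PBS acetate to −0.076 in tau acetate mice. Nptx1 was the reverse, at −0.372 ± 0.086 in PBS control mice and 0.208 ± 0.267 in PBS acetate mice. Its PBS control values of −0.43 to −0.27 lay below those of all the other mice. Cpne4 followed the other members most closely, at 0.001 ± 0.016 in PBS control and −0.043 ± 0.119 in PBS acetate mice. Bok in PBS acetate mice ran from −0.29 to 0.35, with mouse 3 highest. These differences are a description and carry no test.

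**Figure D4:**
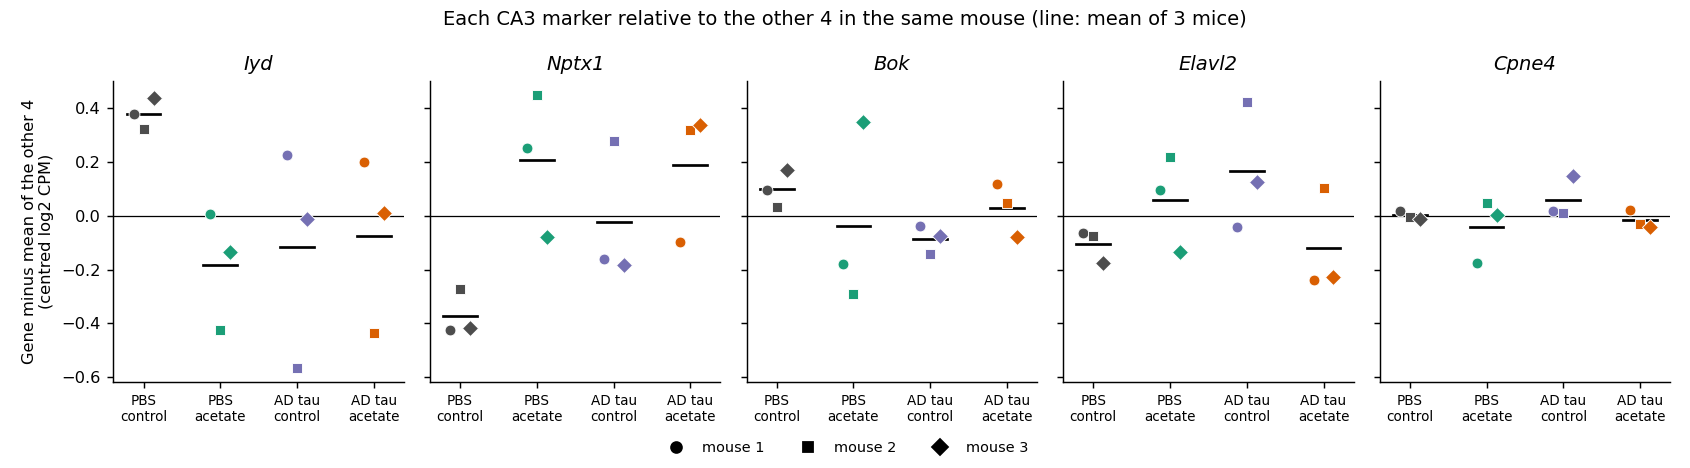
Each marker's centred log2 CPM minus the mean of the other 4 markers in the same mouse, by group (points are mice, lines are means of 3 mice). Iyd sits above the other markers in PBS control mice (0.32 to 0.44), Nptx1 sits below them (−0.43 to −0.27), and Cpne4 lies between −0.18 and 0.15 in all 12 mice.

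A fit that held the score of the 8 other CA3 markers constant gave smaller diet differences in PBS mice. The log2 values were −0.98 for Iyd (adjusted p = 0.617), −0.47 for Cpne4 (adjusted p = 0.716), −0.32 for Elavl2 (adjusted p = 0.537), −0.32 for Bok (adjusted p = 0.861) and −0.20 for Nptx1 (adjusted p = 0.564), and none was called. In this fit 0 of the 14742 genes tested were called by edgeR for the diet in PBS mice, while 2 of the 5 markers (Nptx1 and Elavl2) had an unadjusted p below 0.05. The score itself differed between the PBS groups (means 0.190 and −0.211), so diet and score cannot be told apart in this fit. The 95% intervals in this fit were below 0 for Nptx1 (−0.37 to −0.03) and for Elavl2 (−0.57 to −0.08).

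Genes related to each member by family or pathway were counted in the PBS diet comparison with edgeR, in which 4.85% of all genes were called lower and 3.99% higher. Of 7 pentraxin and AMPA receptor genes, Nptx1 fell and Gria1 (log2 fold change 0.19, adjusted p = 0.0344) and Gria2 (0.14, adjusted p = 0.0751) rose, while Nptx2 was at −0.29 (adjusted p = 0.204). Of 4 ELAVL genes only Elavl2 was called, and Elavl4, another neuronal member, was at −0.19 (adjusted p = 0.140). Of 9 copines, Cpne4 and Cpne9 (log2 fold change −1.02, adjusted p = 0.0978) fell and Cpne8 rose (0.56, adjusted p = 0.0195). In the interaction, in which 1.56% of all genes were called, Cpne8 was called too (−0.73, adjusted p = 0.0569), as were Gria2 (−0.26, adjusted p = 0.0659) and Gria3 (−0.27, adjusted p = 0.0839). Of 14 BCL2-family and IP3 receptor genes none was called, and Bok had the largest change. Of 7 tested genes of thyroid hormone handling (Dio1 and Dio3 did not pass the filter), Iyd was the only one called lower. None of the genes in these 5 lists was called in the other 3 comparisons.

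Genes outside the lists whose pattern over the 12 mice was most like the marker score were Gpc1 (Pearson r = 0.988), Trhde (0.986), Ccdc3 (0.979), Ptgs2 (0.977) and Epdr1 (0.977), among 11388 genes with a mean of at least 5 CPM. The most opposite were Tox3 (r = −0.957), Syt16 (−0.952) and Scg3 (−0.949). Of the members themselves, Cpne4 had the highest r with the mean of the other 4 (0.986), then Bok (0.958), Iyd (0.915), Nptx1 (0.902) and Elavl2 (0.872). All points share the libraries and groups, the correlations are across 12 mice as a description, and no p is given.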

How the data were processed

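Poly(A) RNA of 12 dorsal hippocampus samples was sequenced, and the deposited values are raw read counts per gene, made by the authors with STAR 2.5.2a and HTSeq 0.9.1 on GRCm38, per the submitters' processing notes (SAMtools 1.1 and DESeq2 are named too). No value was normalized before deposit. Each sample was labelled as a numbered replicate of its group, and p-values measure the spread between these mice.

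Counts were scaled by TMM, genes were kept by filterByExpr (minimum count 10, minimum total 15), and edgeR 4.0.16 (robust quasi-likelihood F test, R 4.3.3, limma 3.58.1) was fitted over all 12 mice with 1 mean per group and 8 residual degrees of freedom. Benjamini-Hochberg adjustment ran over all genes tested, and a gene was called at an adjusted p below 0.1 (0.05 as an alternative). Log2 CPM used a prior count of 2. DESeq2 1.42.0, its size factors, no filter, the replicate block, the compared mice alone, a score covariate and leaving out each mouse were alternatives. The fit was tested on simulated data. Named genes were all markers with a row, members of other lists that were called or changed most, and the genes most like or opposite to the marker score. A few called genes of these lists are not reported here. The members and lists were chosen with earlier results of these data known.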

Additional observations from a re-analysis of the deposited data

How the results depend on the processing

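The number of called markers in PBS-injected mice (4) was 0 with the other CA3 score as a covariate and ranged from 0 to 5 when 1 mouse was left out. In the tau diet comparison (0) it was 1 with DESeq2 (Elavl2), whether fitted to all mice or to the compared mice, and on the control diet tau against PBS gave 1 with DESeq2 on the compared mice (Bok). The interaction (0) gave 1 with DESeq2 on all mice (Nptx1). With the replicate block in edgeR it gave 1 (Iyd, 1.09, adjusted p = 0.0687), beside 349 of 14742 genes called. It gave 0 to 1 when a mouse was left out (1, Nptx1, without PBS acetate mouse 3 or tau acetate mouse 3). Without those mice, 179 of 14930 and 442 of 14917 genes were called, in that order. Mice with the same number were not paired by the labels: their deviations correlated at −0.105 to 0.144 over 18 pairs, and 3 of 12 mice correlated best with their own number. The block left 4 called in PBS-injected mice. Single-gene log2 signs turned in the tau diet comparison for Iyd (0.047 without tau control mouse 1 and 0.022 without tau acetate mouse 2, range −0.52 to 0.047 over the omitted mice), for Bok (0.034 without tau acetate mouse 3, range −0.33 to 0.034) and, with the covariate, for Nptx1 (0.036) and Bok (0.18). In tau against PBS on acetate they turned without tau acetate mouse 1 for Bok (−0.0022, range −0.0022 to 0.66) and Elavl2 (−0.034, range −0.034 to 0.22), and with the covariate for Elavl2 (−0.0090). None of these values was called in the main test, and the cause was not tested. The score differences kept their direction under every alternative run. In PBS-injected mice, Cpne4 also lost its call without the filter and at 0.05. At 3 mice per group, depth limits Iyd most.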

Other observations

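Other cell types of the dissected tissue were counted in the diet comparison of PBS-injected mice (edgeR). Across all genes tested, 4.85% were called lower and 3.99% higher there. Of 5 excitatory neuron genes, Slc17a7, the vesicular glutamate transporter of forebrain neurons, fell by 0.22 on the log2 scale (adjusted p = 0.075) and Neurod6, a transcription factor of pyramidal neurons, fell by 0.37 (adjusted p = 0.020). Neurod6 was at 333 ± 24.4 CPM in PBS control and 258 ± 14.6 CPM in PBS acetate mice (SD, n = 3). Of the 5 excitatory values, 3 were below 0 and 2 above. Their summed level overlapped, at 9289 to 9725 CPM in PBS control and 8917 to 9931 CPM in PBS acetate mice. Of 6 inhibitory neuron genes none was called, and Sst, the peptide somatostatin, had the largest value at 0.64 (adjusted p = 0.122). The 5 microglia, 4 endothelial and 3 hilar mossy cell genes held no call. Of 5 astrocyte genes, Slc1a3, a glutamate transporter, rose by 0.22 (adjusted p = 0.036) and Aqp4, a water channel, fell by 0.20 (adjusted p = 0.073). Aqp4 was also called in the interaction (0.35, adjusted p = 0.076), as was Folr1 (2.92, adjusted p = 0.076), beside 1.56% of all genes. Of 5 striatum genes, Rgs9 rose by 0.55 (adjusted p = 0.018). Prkcd, of the thalamus list, was at 86.4 ± 39.9 CPM in PBS control and 25.7 ± 7.93 CPM in PBS acetate mice and was not called (adjusted p = 0.104).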
